A study of Saccharomyces cerevisiae with 13 samples.

Results

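Transcript ratios of 10 cell wall protein genes of budding yeast (Saccharomyces cerevisiae) were followed through the cell cycle. The genes were chosen by name, 5 of the PIR family (PIR1, YKL164C; HSP150, YJL159W; PIR3, YKL163W; CIS3, YJL158C; PIR5, YJL160C) and 5 that encode GPI-linked mannoproteins (CWP1, YKL096W; CWP2; TIP1, YBR067C; TIR1, YER011W; PST1, YDR055W), out of 6205 open reading frames on the array. The list was drawn up with earlier results of these data known. The files hold 9 of the 10 genes under their present ID. CWP2 (YKL096W-A) was read from the row YKL097W-A, which the RefSeq gene table of assembly R64 lists as its synonym.

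The yeast wall is a mesh of glucan and chitin coated with heavily mannosylated proteins. PIR proteins (proteins with internal repeats) are cleaved by the Kex2 protease in the secretory pathway and bind the glucan through an alkali-sensitive link, whereas GPI mannoproteins travel to the cell surface on a lipid anchor and are then joined to glucan. Wall proteins are laid down where growth occurs when they are made, so the time of transcription helps to set where each ends up, in the bud or in the mother cell.

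Cells were arrested with the mating pheromone alpha factor, which halts MATa cells in G1, released into the rich medium YEPD, and sampled every 10 min from 0 to 120 min. The 0 min cells are held by alpha factor. All later samples are the same treatment at a later time. Each array carried Cy5-labelled RNA of its time point together with Cy3-labelled RNA from an asynchronous YEPD culture, which is the common comparison for all values and is no time point. Strain and genotype were not given in the sources used here.

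There were 13 arrays, 1 for each time point and none repeated. By a stamp in their titles they form 2 sets, set A with the 4 time points up to 30 min and set B with the 9 from 40 min onwards. What the stamps record is unknown. Values are given as log2 of time point over asynchronous culture, so 1 is a 2-fold excess. The direction is the likely one: it is not stated, and with it 10 genes known for the pheromone response or the MATa cell type had a median of 2.64 at 0 min. All 130 member values were present, with none at the limit of the measuring scale. Spot intensities were not analysed here, so a flat ratio can come from a steady transcript or from a weak spot. PIR genes resemble each other in sequence, and whether their spots share signal was not tested.

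**Figure D1:**
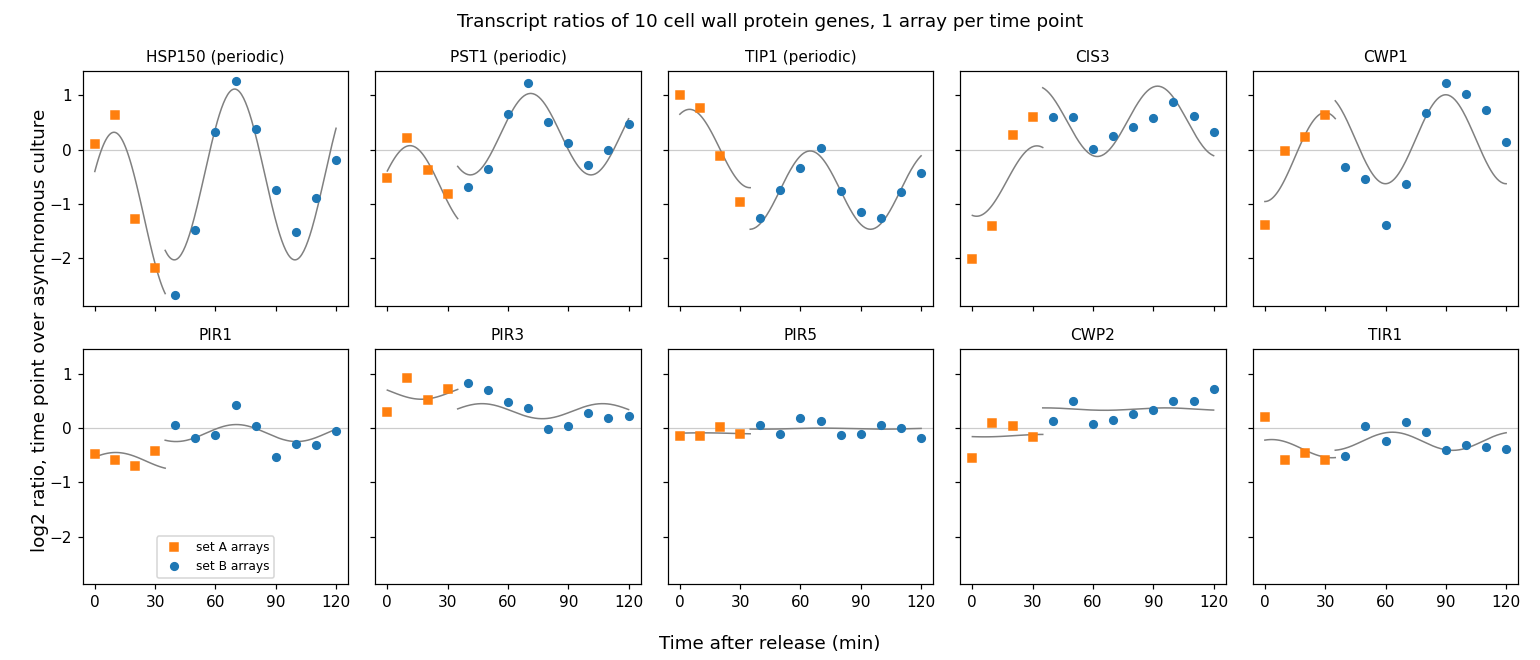
Log2 ratio of time point over asynchronous culture (vertical axis) against time after release in min (horizontal axis) for the 10 genes. Each point is 1 array, orange squares for set A and blue circles for set B, and the grey line is the fitted 60 min rhythm with a step between the sets; HSP150 swings from -2.68 to 1.25, while PIR5 stays between -0.19 and 0.18.

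The question of the time course is which transcripts rise and fall with the cell cycle. The study description places 2 cycles in 120 min, hence a period of 60 min. A cosine and a sine of a 60 min period, with the array set as a covariate, were fitted to every gene with limma, and a gene is called periodic at an adjusted p under 0.05 over 6183 genes. Among the 10 wall protein genes 3 were periodic, HSP150, PST1 and TIP1, and all 3 peaked early in the cycle. The background is 5.47% of all genes tested. The median fitted peak-to-trough size of the 10 genes was 0.81 log2, against 0.25 over all genes. The 10 genes were chosen with earlier results of these data known, so neither comparison tests wall genes as a group. CIS3 and CWP1 had fitted sizes over 1 log2 with peaks near the middle of the cycle, but they did not pass. The other 5 genes had fitted sizes of 0.02 to 0.33 log2. Errors are taken from the residuals, since time points were not repeated.

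HSP150 (also PIR2), a secreted heat shock glycoprotein of the wall, moved most. Its log2 ratios in set A were 0.11 at 0 min, 0.64 at 10 min, -1.28 at 20 min and -2.18 at 30 min. In set B they were -2.68 at 40 min, -1.48 at 50 min, 0.33 at 60 min, 1.25 at 70 min, 0.39 at 80 min, -0.75 at 90 min, -1.52 at 100 min, -0.89 at 110 min and -0.19 at 120 min. The transcript was thus high at 10 and 70 min and low at 40 and 100 min, in both cycles. At 70 min it stood at 2.39 times the asynchronous culture and at 40 min at 0.16 times, a range of 15.3-fold.

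The fitted rhythm of HSP150 spanned 3.14 ± 0.38 log2 (SE), or 8.83-fold, which ranked 4 among 6183 genes by size. It peaked at 9.5 ± 1.1 min within the 60 min cycle (limma, adjusted p = 0.00383). That SE takes the period as exactly 60 min. In the 9 arrays of set B alone the size was 3.08 ± 0.34 log2 (adjusted p = 0.0031). With the low values of set A at 30 min and of set B at 40 min next to each other, the trough lies across the change of array set. The trough of the second cycle, at 100 min, was 1.16 log2 higher than the one at 40 min.

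CIS3 (also PIR4), a mannose-bearing glycoprotein of the PIR family, ran against HSP150. Its log2 ratios in set A were -2.0 at 0 min, -1.41 at 10 min, 0.27 at 20 min and 0.59 at 30 min. In set B they were 0.60 at 40 min, 0.60 at 50 min, 0.01 at 60 min, 0.25 at 70 min, 0.43 at 80 min, 0.59 at 90 min, 0.88 at 100 min, 0.63 at 110 min and 0.32 at 120 min. The ratio was lowest in the arrested cells and at 10 min, and its later minimum at 60 min was far shallower.

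The fitted size of CIS3 was 1.29 ± 0.34 log2 with a peak at 32.1 ± 3.0 min, and it did not pass (limma, adjusted p = 0.0943). Within set B the values ran over 0.86 log2 in place of 2.88 log2 over all arrays, with a fitted size of 0.59 ± 0.14 log2 (adjusted p = 0.0773). Without the 0 and 10 min arrays the size was 0.60 ± 0.13 log2 and it passed (adjusted p = 0.0398; 4 of 10 members and 5.73% of all genes were called there), as it did with a 65 min period (0.0459) and with quantile-normalized arrays (0.0465; 4 of 10 members and 8.83% of all genes). Over the alternatives tried the adjusted p ran from 0.0398 to 0.265. The fitted peak of CIS3 came 22.5 min after that of HSP150, and that difference was not tested. Pearson's r between both genes was -0.50 over 13 arrays and -0.72 over the 9 arrays of set B, as a description of profiles that share arrays and reference.

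PIR1, PIR3 and PIR5 showed no such swing. PIR1, an O-glycosylated protein needed for a stable wall, stood at -0.48, -0.58, -0.70 and -0.42 log2 over 0 to 30 min. From 40 to 120 min it read 0.05, -0.19, -0.13, 0.43, 0.04, -0.53, -0.30, -0.31 and -0.06. Its highest value was at 70 min, the time at which HSP150 was highest, and its fitted size was 0.31 ± 0.19 log2 (limma, adjusted p = 0.54).

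PIR3, a close relative of PIR1, had its higher ratios on the earlier arrays. It read 0.29, 0.92, 0.51 and 0.72 log2 over 0 to 30 min. From 40 to 120 min it read 0.82, 0.70, 0.48, 0.36, -0.03, 0.04, 0.28, 0.19 and 0.21. Its fitted size was 0.28 ± 0.24 log2 (adjusted p = 0.729). In 6 of the 7 pairs of arrays 60 min apart the earlier value was the higher. PIR5, a family member without a known function, stayed between -0.19 and 0.18 log2 on every array, with a fitted size of 0.02 ± 0.12 log2 (adjusted p = 0.995). Only 7.15% of genes had a smaller range, against 80.7% for PIR1 and 72.1% for PIR3.

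Correlations were low or negative between PIR family members that are neighbours on a chromosome. In the RefSeq gene order PIR1 and PIR3 are neighbours on chromosome XI, and PIR5, HSP150 and CIS3 follow each other on chromosome X. From the strand in their IDs, PIR1 and PIR3 are read away from each other, as are PIR5 and HSP150. Pearson's r was -0.15 between PIR1 and PIR3 and 0.02 between PIR5 and HSP150 (13 arrays each). Over the 9 arrays of set B it was 0.27 and 0.14. PIR1, PIR3 and PIR5 were not periodic, so a low r with them cannot tell unlike profiles from noise. HSP150 and CIS3 had r = -0.50 (13 arrays) and -0.72 over set B. CWP2 and CWP1, also neighbours on chromosome XI and on the same strand, had r = 0.49 (13 arrays) and 0.48 over set B.

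Among the GPI mannoproteins, PST1 was periodic. PST1 encodes a protein secreted by regenerating protoplasts and is a known target of the cell wall integrity pathway. Its log2 ratios in set A were -0.51 at 0 min, 0.21 at 10 min, -0.38 at 20 min and -0.82 at 30 min. In set B they were -0.69 at 40 min, -0.35 at 50 min, 0.65 at 60 min, 1.22 at 70 min, 0.51 at 80 min, 0.12 at 90 min, -0.29 at 100 min, 0.00 at 110 min and 0.47 at 120 min. The maximum at 70 min was 2.33 times the asynchronous culture, and the maximum at 10 min was lower by 1.01 log2.

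The fitted rhythm of PST1 spanned 1.5 ± 0.16 log2 (2.83-fold) with a peak at 11.3 ± 1.0 min (limma, adjusted p = 0.00295). The fitted step between the sets, set A minus set B, was -0.96 log2. Without the array set in the model PST1 did not pass (1.06 log2, adjusted p = 0.168), and 2 of 10 members and 6.21% of all genes were called. Over set B alone it passed with 1.52 ± 0.18 log2 (adjusted p = 0.00355). There its profile followed that of HSP150 at r = 0.98 (9 arrays), against 0.84 over all 13 arrays.

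TIP1, a mannoprotein of the mother cell wall that is also induced by cold, was periodic with a high start. Its log2 ratios in set A were 1.0 at 0 min, 0.77 at 10 min, -0.12 at 20 min and -0.96 at 30 min. In set B they were -1.26 at 40 min, -0.74 at 50 min, -0.34 at 60 min, 0.02 at 70 min, -0.75 at 80 min, -1.14 at 90 min, -1.26 at 100 min, -0.77 at 110 min and -0.43 at 120 min. The arrested cells stood at 2.0 times the asynchronous culture, and the second maximum, at 70 min, only reached 1.02 times.

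The fitted rhythm of TIP1 spanned 1.44 ± 0.17 log2 (2.72-fold) and peaked at 4.8 ± 1.3 min (limma, adjusted p = 0.00383). Within set B the size was 1.14 ± 0.13 log2 (adjusted p = 0.0031). TIP1 and CIS3 ran opposite to each other, with r = -0.92 over 13 arrays and -0.81 over set B. Both hold their extreme values at 0 and 10 min, TIP1 high and CIS3 low.

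CWP1, a mannoprotein that is linked to glucan and localizes to the birth scar, had its maxima at 30 and 90 min. Its log2 ratios in set A were -1.38 at 0 min, -0.03 at 10 min, 0.24 at 20 min and 0.63 at 30 min. In set B they were -0.32 at 40 min, -0.55 at 50 min, -1.39 at 60 min, -0.63 at 70 min, 0.67 at 80 min, 1.22 at 90 min, 1.03 at 100 min, 0.73 at 110 min and 0.14 at 120 min. The minima at 0 and 60 min were close to each other, while the maximum at 30 min lay 0.59 log2 below that at 90 min. The low value at 60 min did not return at 120 min, which stood 1.53 log2 higher.

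The fitted size of CWP1 was 1.64 ± 0.43 log2 with a peak at 30.0 ± 2.9 min, and it did not pass (limma, adjusted p = 0.0893). It passed at a 65 min period (1.93 ± 0.36 log2, adjusted p = 0.0187, where 5 of 10 members and 5.77% of all genes were called) and without the 110 min array (0.0477). It did not within set B alone (1.59 ± 0.55 log2, adjusted p = 0.264), and over the alternatives tried the adjusted p ran from 0.0187 to 0.316. Its ratio stayed high from 80 to 110 min, a wider shape than that of the fitted curve.

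**Figure D2:**
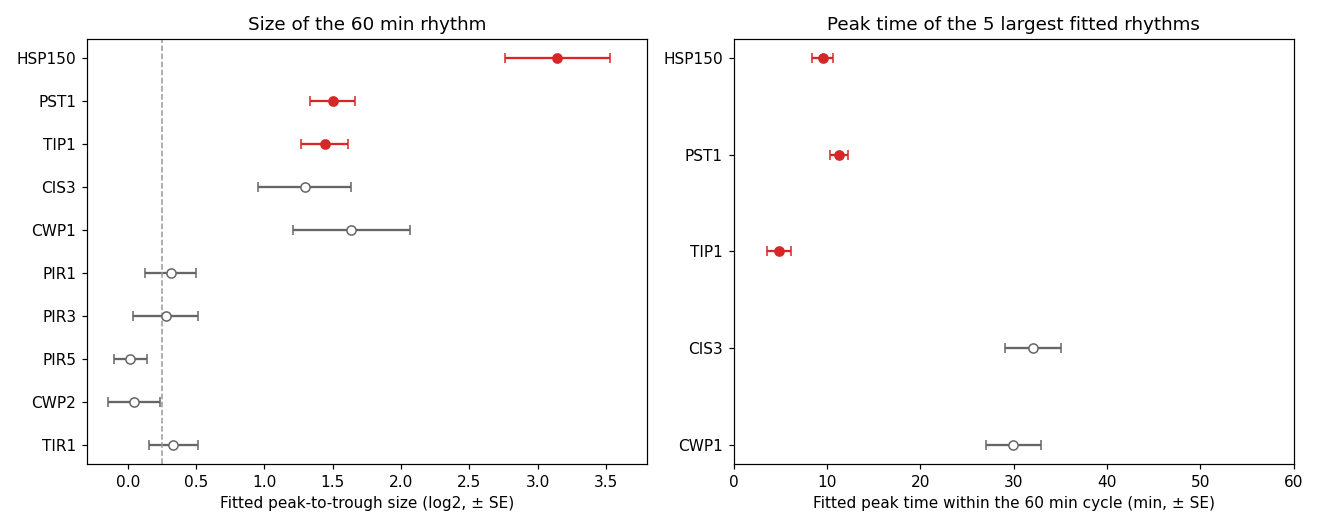
Left, fitted peak-to-trough size in log2 with its SE (horizontal axis) for each of the 10 genes; right, fitted peak time in min within the 60 min cycle with its SE for the 5 genes with the largest sizes. Filled red points passed at an adjusted p under 0.05, open points did not, and the dashed line is the median over all genes, 0.25; HSP150, PST1 and TIP1 peak between 4.8 and 11.3 min, CIS3 and CWP1 at 32.1 and 30.0 min.

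CWP2 and TIR1 did not pass either. CWP2, one of the most abundant wall mannoproteins, read -0.54, 0.09, 0.04 and -0.17 log2 over 0 to 30 min. From 40 to 120 min it read 0.13, 0.50, 0.07, 0.15, 0.27, 0.33, 0.50, 0.49 and 0.72. It was lowest at 0 min and highest at 120 min, and its fitted size was 0.04 ± 0.19 log2 (limma, adjusted p = 0.988). TIR1, a serine- and alanine-rich mannoprotein induced by cold and by lack of oxygen, stood at 0.21 log2 at 0 min and between -0.58 and 0.10 on the other 12 arrays (0.33 ± 0.18 log2, adjusted p = 0.481).

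Leaving out any 1 of the 13 arrays left HSP150, PST1 and TIP1 periodic, with adjusted p from 0.00201 to 0.0193 over those fits. At a 55 min period none of the 10 genes passed in limma (HSP150 0.109, PST1 0.0639, TIP1 0.0924), and 0.097% of all genes did. Within set B alone the same 3 genes passed, against 4.74% of all genes. The fitted peak times within the first cycle moved with the assumed period, by more than their SEs for these 3 genes. The fitted peaks of the second cycle lie a whole assumed period later, so they moved by other amounts. With periods of 55 and 65 min HSP150 peaked at 12.4 and 5.6 min, PST1 at 14.6 and 7.1 min, and TIP1 at 7.9 and 0.5 min. CIS3 peaked at 31.1 and 31.9 min and CWP1 at 31.5 and 27.6 min.

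Values 60 min apart show how far the cycles repeat. For TIP1 the second value was at or below the first in all 7 pairs, with a second minus first difference of -1.34 log2 at 0 and 60 min, and the median absolute difference was 0.19 log2. For HSP150 the second was higher in 6 of 7 pairs, by up to 1.67 log2 at 20 and 80 min, with a median absolute difference of 0.62 log2. For PST1 it was higher in 6 of 7 pairs, with a median absolute difference of 0.89 log2, and for CIS3 in 6 of 7, by 2.02 log2 at 0 and 60 min. In 4 of the 7 pairs a set A array is set against a set B array, where cycle and array set cannot be told apart. In the other 3 pairs, within set B, HSP150 differed by 1.16, 0.58 and -0.52 log2, and CWP1 by 1.35, 1.27 and 1.53 log2.

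The second question is whether the cells held by alpha factor departed from the curve. An indicator of the 0 min array was added to the model. None of the 10 genes passed in limma, against 5.23% of all genes, 3.15% higher and 2.08% lower. At an unadjusted p under 0.05 there were 5 of 10, and 1179 of 6153 genes. CIS3 deviated from its curve by -1.42 ± 0.45 log2 (SE, adjusted p = 0.1), PIR3 deviated by -0.73 ± 0.29 (0.186) and CWP2 by -0.69 ± 0.26 (0.159). TIR1 deviated by 0.76 ± 0.23 log2 (adjusted p = 0.0876) and TIP1 by 0.62 ± 0.24 (0.179).

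CIS3 did pass at 0 min when the 10 min array was left out (adjusted p = 0.000141) or the array set (-2.0 log2, 0.029), over a range of 0.000141 to 0.188 among the alternatives. TIP1 passed without the 10 min array (adjusted p = 0.0329) and TIR1 without the 50 min array (0.0325). Over all genes 332 passed without the 10 min array, 220 without the array set and 241 without the 50 min array. The 10 min array had the widest spread of all, with an SD of 0.63 log2 over its values against 0.31 to 0.50 on the others. The remaining 5 members, PIR1, HSP150, PIR5, CWP1 and PST1, had adjusted p from 0.432 to 0.906.

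The genes with the most similar profiles were sought for the 3 periodic members, by Pearson's r over 13 arrays and outside the 10 genes. HSP150 was closest to MSA1, a regulator of G1/S transcription (r = 0.91), MCM5, a subunit of the replicative helicase (0.91), and GIC2, an effector of the polarity GTPase Cdc42 (0.90). PST1 was closest to ASH1, a daughter cell repressor of mating type switching (0.95), SIC1, the inhibitor of B-type cyclin kinase (0.94), and VCX1, a vacuolar calcium exchanger (0.91). TIP1 was closest to MFA1, which encodes the a-factor pheromone (0.95), AGA2, the binding subunit of a-agglutinin (0.91), and GFA1, the first enzyme of chitin precursor synthesis (0.89). Over set B alone r was 0.86, 0.72 and 0.64 for the 3 companions of TIP1, and 0.98, 0.97 and 0.96 for those of PST1.

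**Figure D3:**
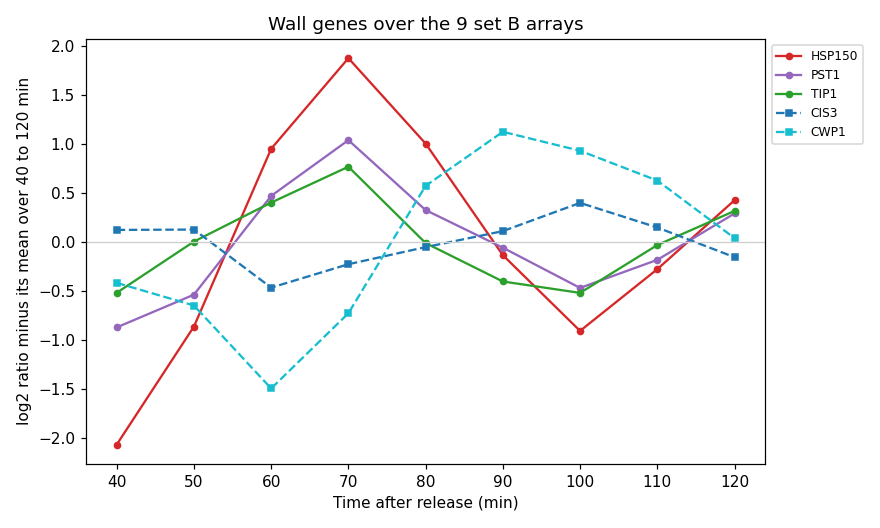
Log2 ratio minus its mean over 40 to 120 min (vertical axis) against time after release in min (horizontal axis) on the 9 arrays of set B, 1 array per point. HSP150, PST1 and TIP1 (solid lines) are highest at 70 min, whereas CWP1 and CIS3 (dashed lines) are lowest at 60 min and highest at 90 and 100 min.

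Other wall genes were counted as a backdrop. Over all genes tested 5.47% were periodic, and 4.74% within set B alone. The lists here and below were also drawn up with earlier results known, so their counts are no test. Of 29 other GPI wall mannoproteins 4 were periodic, with a median size of 0.34 log2, among them EGT2, a wall protein of cell separation (3.58 ± 0.65 log2, peak at 13.5 min, but 1.75 log2 and not called without the array set, adjusted p = 0.628), TOS6 (2.89 ± 0.61 log2, peak at 25.6 min) and NCW2 (2.02 ± 0.33 log2, peak at 11.1 min, not called without the array set, 0.168). TOS6 lay below its cycle at 0 min (deviation -3.31 ± 0.43 log2, adjusted p = 0.00135), its size was 1.57 log2 within set B and 1.55 log2 without the 0 and 10 min arrays (adjusted p = 0.00486 and 0.0179), and its call was lost when limit values were kept (0.0613), with robust shrinkage (0.0508) and in 8 of the 13 fits that left out 1 array. EGT2 and NCW2 had their maximum at 70 min and none near 10 min in the first cycle. EGT2 stayed between -3.85 and -3.04 log2 from 0 to 50 min, and NCW2 fell from -0.50 at 0 min to -1.91 at 40 min. Of 18 enzymes that build or trim wall glycans 9 were periodic, with a median size of 1.11 log2. CRH1, a transglycosylase that joins chitin to glucan, peaked at 21.0 min (2.11 ± 0.22 log2, adjusted p = 0.00285), GAS3 at 38.4 min (1.75 ± 0.25, 0.00602) and UTH1 at 59.8 min (1.57 ± 0.28, 0.0208). Within set B alone UTH1 had a size of 0.97 log2 and did not pass (0.0653).

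Genes that make or cut the sugar coat were also counted, against 5.47% of all genes periodic and 4.74% within set B alone. Of 13 genes for mannosylation and Kex2 processing 6 were periodic (2 within set B alone), led by the mannosyltransferase gene MNN1 at 26.8 min (1.34 ± 0.21 log2, adjusted p = 0.00912). KEX2 itself, the protease that cuts PIR precursors, had a size of 0.55 ± 0.14 log2 and a peak at 40.3 min (adjusted p = 0.0804).

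The cell wall integrity pathway, which includes the kinase Slt2 and the factor Rlm1 upstream of PST1, had 2 of 17 genes periodic (4 within set B alone). Over all genes the shares were 5.47% periodic and 4.74% within set B alone. SLT2 and RLM1 had fitted sizes of 0.08 ± 0.26 and 0.14 ± 0.21 log2 (limma, adjusted p = 0.973 and 0.885). At 0 min SLT2 stood 1.13 ± 0.29 log2 and RLM1 0.83 ± 0.21 log2 above the curve (adjusted p = 0.0419 and 0.0442). Those calls were lost with quantile-normalized arrays (0.143 and 0.0966) and on leaving out 1 array in 7 and 9 of 12 fits. PST1 deviated there by -0.21 ± 0.25 log2 (adjusted p = 0.727).

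Since HSP150 responds to heat and TIP1 and TIR1 to cold or lack of oxygen, stress genes were read on the same arrays. The median of the stress response genes lay between 0.01 and 0.44 log2 on every array, with 0.44 at both 10 and 30 min and 0.01 at 70 min. Of 15 stress genes 1 was periodic, against 5.47% of all genes. The median of 11 genes known for low oxygen lay between -0.21 and 0.17 log2, and none of them was periodic in limma. At an unadjusted p under 0.05 there were 6 of 15 stress genes and 1 of 11 low-oxygen genes, against 1309 of 6183 genes. At 0 min 2 stress genes were called below their curves, HSP26 and HSP42 (deviations of -1.23 and -0.99 log2), against 2.08% of all genes. Their ratios were 0.00 and 0.35 log2 at 0 min, and 1.31 and 1.53 log2 at 10 min. Both calls were lost with quantile-normalized arrays and without the 10 min array. They were also lost without the array set, where each deviation was -0.21 log2. The part of stress and low-oxygen genes in the wall gene profiles was not tested.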

How the data were processed

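The deposited values are log10 ratios of 2-colour arrays, with Cy5 for the time point and Cy3 for the asynchronous culture per the labels. The base was read from their ends at exactly 2 and -2. Scanner, background correction and normalization were not given in the sources used here, and depth has no meaning for arrays, whose number, 13, limits the precision. Values were multiplied by 3.32 to give log2, and 272 of 80493 values, those at or beyond 1.99 in size on the log10 scale, were treated as missing. Of 6205 rows 5704 were named by locus tag and 16 by synonym, and 485 keep their ID. The 12 control rows were left out.

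Genes with values on at least 11 arrays were fitted with limma 3.58.1 in R 4.3.3 (cosine and sine of 60 min, array set), and for 0 min with an indicator of that array among 6153 genes. Its error assumes that this array varies like the others. Benjamini-Hochberg adjustment ran over all genes tested, at 0.05. SEs of sizes and peak times come from the moderated residual variance by the delta method, with the period taken as known. Fits were run on simulated data with independent errors and planted 60 min rhythms or shifts at 0 min. Those runs cannot show how the fits fare with another period or with errors shared by neighbouring time points. Tables and plots used Python 3.11.15, pandas 2.3.3, NumPy 2.4.6 and matplotlib 3.10.9.

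The members and lists were chosen with earlier results of these data known. Named were all 10 members, up to 3 periodic genes and 2 genes called at 0 min per list by size, 4 regulators (1 further gene and 1 gene list of the rule are not reported here) and the 3 most alike genes of each periodic member. The regulator SWI5, not described above, was not periodic (0.86 ± 0.35 log2, limma, adjusted p = 0.319). It passed within set B alone (adjusted p = 0.0434), where 4.74% of all genes were called. Not all genes the rule allows are described. The alternatives changed the array set, period, normalization, limit values, shrinkage, filter on missing values and arrays used.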

Additional observations from a re-analysis of the deposited data

How the results depend on the processing

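The count of 338 periodic genes became 6 at a 55 min period and 546 with quantile-normalized arrays, and between 143 (without 70 min) and 381 (without 10 min) on leaving out 1 array. The 3 periodic members became 0 at 55 min and 5 at 65 min, and 3 or 4 on leaving out 1 array, the 4 being without 110 min, where CWP1 passed. The 322 genes deviating at 0 min became 556 at 65 min, 91 with quantile-normalized arrays and 214 (without 90 min) to 367 (without 60 min) on leaving out 1 array. The members deviating there, 0, became 1 without the array set, where 220 of all genes were called. On leaving out 1 array they were 0 to 2, with 2 without 10 min, where 332 of all genes were called. Deviations at 0 min that changed sign had not passed in either setting. PIR1 went from 0.10 to -0.40 without the array set, -0.09 at 65 min and -0.12 with quantile-normalized arrays, HSP150 from 0.91 to -0.09 without the array set and -0.13 at 65 min, and PST1 from -0.21 to 0.31 at 55 min. The cause was not tested. No paired analysis was possible because each time point has 1 array. Leaving out 0 and 10 min together was chosen after seeing the data, and CIS3 then passed beside the 3 periodic members. Array values carry no spot intensity, so flat and weakly detected transcripts could not be told apart.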
